A study of Mus musculus with 12 samples.

Results

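To ask how far cells that lack RTF2 differ from one line to the other, RTF2-deficient mouse embryonic fibroblasts (MEFs) of line 2 were compared with those of line 1 across all autosomal genes with enough counts to be tested. Of 24100 genes listed, 14263 passed the filter on low counts, and of these 490 on chromosomes X and Y and 17 without a chromosome in RefSeq were left out. The comparison therefore covers 13756 genes. Both groups carried the genotype Rtf2-/lox and received Cre by retrovirus 72 hrs before RNA was taken, Cre being the recombinase that removes the floxed part of Rtf2. Each group had 3 libraries, and the WT (Rtf2+/+ with Cre) littermate controls of each line had 3 libraries as well, 12 in all. The study describes the cells as SV40-immortalized and the 3 libraries of a group as technical replicates. The lines came from different mothers, so line, litter and the embryo a culture came from cannot be told apart, and the p-values measure the spread between libraries and not between embryos.

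RTF2 is a protein of the replisome, the machinery that copies DNA. Fibroblasts keep much of the positional code of the tissue they were taken from. The Hox genes, transcription factors in 4 clusters named A to D, are switched on in the order of their place in the cluster, so that the genes at the far end (paralog groups 9 to 13) mark the posterior trunk, the genitals and the distal limb. Pitx1 and Tbx4 mark the hindlimb, Tbx5 marks the forelimb, Hand2 marks the posterior limb bud and the branchial arches, Lmx1b marks the dorsal limb, and Pax3 and the Zic genes mark the dorsal neural tube, neural crest and somites. MEF cultures are made from many parts of an embryo, and a count from a whole culture cannot tell fewer cells of a kind from less RNA per cell.

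The promoters of 4 genes that were higher in line 2 are shown because the genes belong to different positional systems and moved together. Each sequence is the 250 bases upstream of 1 RefSeq transcript start of the gene in GRCm38.p6, read 5′ to 3′ on the strand of the gene. The window of Lmx1b is chr2:33641099-33641348 on the - strand. In it the capitals mark the 94 bases between this start of Lmx1b and that of the long noncoding RNA C130021I20Rik, which is transcribed the other way from a start 95 bases away. The annotated Lmx1b gene reaches to base 33641208, so the window also holds a more distal start of it.
Lmx1b: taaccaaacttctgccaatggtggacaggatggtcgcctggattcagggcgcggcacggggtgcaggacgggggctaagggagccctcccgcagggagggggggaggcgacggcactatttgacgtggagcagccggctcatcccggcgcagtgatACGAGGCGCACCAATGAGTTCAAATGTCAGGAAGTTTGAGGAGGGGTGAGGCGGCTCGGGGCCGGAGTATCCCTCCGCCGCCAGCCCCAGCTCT
The Hand2 window is chr8:57320733-57320982 on the + strand, with capitals where CAATAAA lies on the opposite strand. Posterior Hox proteins bind motifs of this type.
Hand2: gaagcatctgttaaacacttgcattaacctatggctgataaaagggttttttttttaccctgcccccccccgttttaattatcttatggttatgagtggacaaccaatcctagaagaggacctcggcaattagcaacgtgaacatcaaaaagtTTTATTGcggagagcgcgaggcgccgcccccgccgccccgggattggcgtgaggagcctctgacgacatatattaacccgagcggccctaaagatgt
The Tbx4 window is chr11:85896515-85896764 and the Hoxd13 window is chr2:74667975-74668224, both on the + strand, with capitals at TATAAA, the letters of a TATA box, on either strand. The Tbx4 window lies inside the annotated gene, which begins at base 85886367, before an internal transcript start, whereas the Hand2 and Hoxd13 windows end where their genes begin. In Hoxd13 the motif is present on both strands with overlap.
Tbx4: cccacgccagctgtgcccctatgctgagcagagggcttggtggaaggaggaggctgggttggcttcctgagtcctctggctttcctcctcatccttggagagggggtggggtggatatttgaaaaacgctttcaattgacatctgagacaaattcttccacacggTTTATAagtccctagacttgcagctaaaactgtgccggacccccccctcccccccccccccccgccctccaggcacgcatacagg
Hoxd13: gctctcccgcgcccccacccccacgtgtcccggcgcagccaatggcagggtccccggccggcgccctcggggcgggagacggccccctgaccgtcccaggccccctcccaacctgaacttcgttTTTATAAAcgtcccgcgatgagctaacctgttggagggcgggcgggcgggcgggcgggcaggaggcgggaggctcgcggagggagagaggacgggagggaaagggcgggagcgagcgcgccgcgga
Searched on both strands, TATAAA was present in 12.37% of all 32851 RefSeq promoter windows of this length and in 12.26% of the 106 windows of genes higher in line 2. CAATAAA was present in 4.2% of all windows, in 3.77% of those of the higher genes and in 0 of the 61 windows of the lower genes. TAATCC, the letters that Pitx-type homeodomains bind, was present in 6.25% of all windows, in 6.6% of those of the higher genes and in 8.2% of the 61 windows of the lower genes. TATAAA was present in 4.92% of the windows of the lower genes and in 21.74% of 23 Hox windows. Of those Hox windows, 4.35% held CAATAAA and 0 held TAATCC. The promoter table held 133 of the called genes, and Pitx1, Pax3 and Hoxc10 were not among them.

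The 6 RTF2-deficient libraries held between 39360167 and 43042046 counts. Rtf2, the targeted gene, was at 5.64, 5.44 and 6.29 CPM (a count scaled to its library's total, after TMM normalization) in RTF2-deficient line 1 and at 6.66, 6.49 and 6.33 CPM in RTF2-deficient line 2, against 44.8 to 57.8 CPM in the WT libraries. Both lines were thus low in Rtf2, and the log2 fold change between them of 0.17 ± 0.08 (SE) did not pass the test (adjusted p = 0.408). Both RTF2-deficient lines had Xist at 103 CPM or more and the Y-linked gene Ddx3y at 0.195 CPM or less, whereas WT line 2 had Ddx3y at 91.8 to 107 CPM, unlike WT line 1. The WT comparison of lines used below therefore also compares libraries that differ in sex-linked genes, and the line and the sex of its cells cannot be told apart. One RTF2-deficient library stood apart. In line 2 replicate 3 the interferon score, the median log2 CPM of 44 interferon-stimulated genes, was 6.27, against 1.71 and 3.22 in the other line 2 libraries and 2.02, 0.859 and 0.926 in line 1.

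In RTF2-deficient MEFs, 178 genes differed between line 2 and line 1, 118 of them higher and 60 lower in line 2. A gene was called where its log2 fold change, line 2 over line 1, was beyond 1 in size and its p, from the quasi-likelihood test of edgeR with Benjamini-Hochberg adjustment over all genes tested, was under 0.05. The calls were 1.29% of the genes, 0.858% being higher and 0.436% lower. Most genes differed little, with a median absolute value of 0.126 on the log2 scale and 94.47% of genes within 1. Line 2 and line 1 libraries did not overlap at 178 of the 178 called genes, against 19.7% of all genes, and 13.3% of all genes had an unadjusted p under 0.05. The calls were made on the same libraries, so the lack of overlap at called genes is no separate support for them. Among the called genes, 112 of the higher and 59 of the lower were protein-coding and 6 higher and 1 lower were lncRNAs. The count was 111 without line 1 replicate 2 and 96 without line 2 replicate 2, and it was 142 without the interferon-high line 2 replicate 3. It also moved with the method, to 323 in DESeq2, to 29 in glmTreat, which tests against the fold threshold itself, and to 569 (205 higher, 364 lower) with the interferon score as a term in edgeR. Fitted on the 6 RTF2-deficient libraries alone, edgeR called 124 genes (82 higher, 42 lower), 116 of them among the 178. With each of the 6 libraries left out in turn, 79 of the 178 genes kept their call every time, 63 of them higher and 16 lower, and no called gene changed sign.

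Transcription factors of limb and face held some of the largest differences. Of 55 listed, 52 were tested, of which 9 were higher in line 2 and 5 lower, beside 0.858% and 0.436% of all genes. Their median log2 fold change was -0.095, beside 0.01 over all genes. Fitted on the 6 libraries alone, 49 were tested, 7 being higher and 2 lower. Pitx1, which specifies hindlimb identity, was at 0.0478, 0.0736 and 0.0244 CPM in line 1 and at 5.65, 4.72 and 4.93 CPM in line 2. It was near absent in line 1 and present in every line 2 library, with 6 counts in all of line 1 against 637 in line 2, a ratio of 105.2 with a 95% exact counting interval of 48.07 to 287.8. The log2 fold change was 6.63 ± 0.53 (adjusted p = 0.0001151). Tbx4, the hindlimb T-box gene downstream of Pitx1, was at 0.215, 0.294 and 0.219 CPM in line 1 and at 8.08, 7.49 and 10.8 CPM in line 2. Its log2 fold change of 5.16 ± 0.20 had the smallest adjusted p of the named genes (4.863e-07). Hand2, which patterns the posterior limb bud, was at 0.167, 0 and 0.268 CPM in line 1 and at 3.27, 3.31 and 2.67 CPM in line 2. One line 1 library had no count of Hand2, which allows up to 0.0709 CPM, and the groups were far apart at a log2 fold change of 4.38 ± 0.56 (adjusted p = 0.002227).

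**Figure D1:**
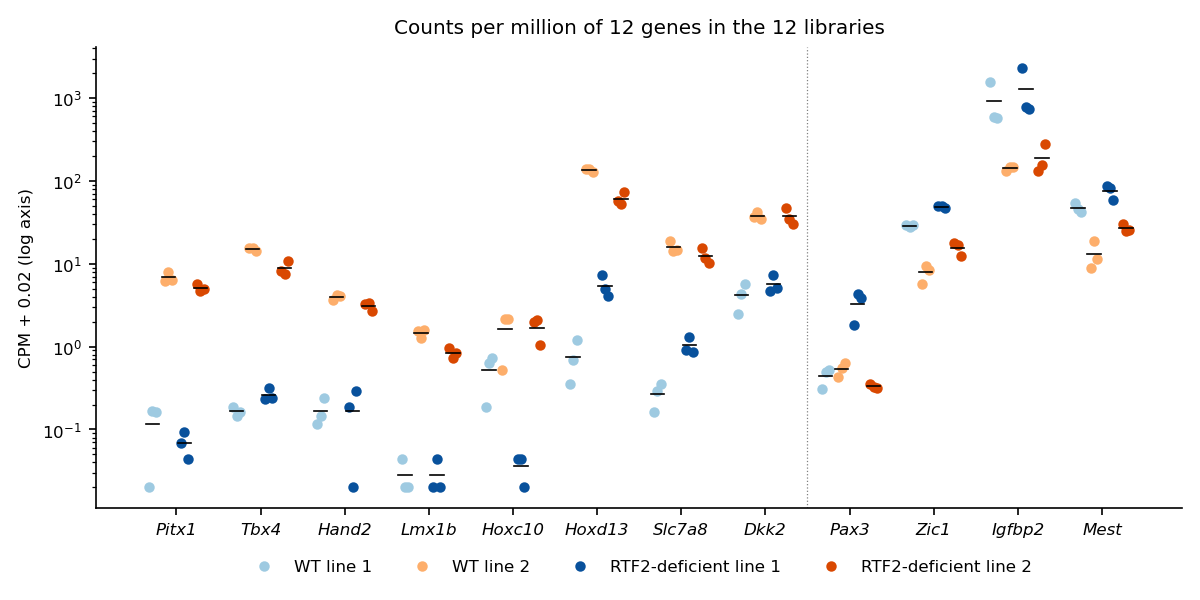
CPM plus 0.02 on a log axis for 12 genes in the 12 libraries, with a point for each library and a black bar for the mean of the 3 libraries of a group. The 8 genes left of the dotted line were higher in line 2 and the 4 right of it were lower, and at all 12 the dark blue (RTF2-deficient line 1) and dark orange (RTF2-deficient line 2) points do not overlap.

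Genes of other limb axes moved with them. Several genes in this and the next paragraphs fall outside the rule for named genes and were chosen after their values were seen: Lmx1b, C130021I20Rik, Tbx5, Shox2, En1, Tbx3, Barx1, Zic4, Foxd1, Nkx3-2, Tfap2b, Fxyd6, Evx2, Hottip, Hoxb3 and the further Hox genes. Lmx1b, the dorsal limb gene, had 1 count in the 3 line 1 libraries and was at 0.938, 0.718 and 0.814 CPM in line 2, a ratio of 102.1 (95% exact counting interval 17.92 to 4070). C130021I20Rik, the lncRNA that starts beside it, had 3 counts in line 1 and was at 4.23, 3.7 and 5.56 CPM in line 2, a ratio of 187 (63.65 to 909.3). Both neighbours were higher, and their shared promoter window is the first one printed above. Shox2, which is needed for the proximal limb, had a log2 fold change of 2.95 ± 0.35 (adjusted p = 0.00146), and Tbx5, the forelimb counterpart of Tbx4, one of 2.59 ± 0.36 (adjusted p = 0.003913). The forelimb and the hindlimb T-box gene were thus both higher in line 2. En1, Tbx3 and Barx1 were also called higher, but the En1 call was lost without line 1 replicate 1 or line 2 replicate 2 (adjusted p up to 0.0632), that of Tbx3 without any library other than line 1 replicate 1 (up to 0.135), and that of Barx1 without any other than line 2 replicate 3 (up to 0.0944).

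The 5 listed factors that were lower in line 2 were Pax3, Zic1, Tfap2b, Foxd1 and Nkx3-2, and 2 lower calls were left without any 1 of the 3 line 2 libraries. Pax3, a regulator of neural crest and muscle precursors, was at 1.79, 4.24 and 3.8 CPM in line 1 and at 0.337, 0.308 and 0.294 CPM in line 2. The line 2 libraries lay close together and all below line 1, with a log2 fold change of -3.38 ± 0.36 (adjusted p = 0.0007779). Zic1, a zinc finger factor of the dorsal neural tube and somites, was at 50, 50 and 46.9 CPM in line 1 and at 17.8, 16.8 and 12.2 CPM in line 2, a log2 fold change of -1.65 ± 0.18 (adjusted p = 0.0007757). Zic4, its neighbour in a divergent pair on chromosome 9, was lower by a similar amount, -1.61 ± 0.26 (adjusted p = 0.009113), and lost its call without line 2 replicate 2 (adjusted p = 0.0585). Tfap2b, a neural crest factor, was lower as well, but its call was kept only without line 1 replicate 1 (adjusted p up to 0.164 otherwise). Foxd1, expressed in facial and kidney mesenchyme, lost its call without any 1 of the 6 libraries (up to 0.135), and Nkx3-2, a factor of early cartilage, without any but line 1 replicate 3 (up to 0.1). Sox10, a marker of migrating neural crest and glia, was at or under 0.049 CPM in both lines.

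The Hox genes differed by cluster and by position in it. Of 39 Hox genes, 34 were tested, of which 15 were higher and 1 was lower in line 2. Over all genes 0.858% were called higher and 0.436% lower. The median log2 fold change of the 34 was 0.319, and it was 0.52 without line 1 replicate 1 and 0.702 without line 1 replicate 3. Among paralog groups 9 to 13, 11 of 13 genes tested were higher and none was called lower, with a median of 2.957. Among groups 1 to 8, 4 of 21 were higher and 1 was lower, with a median of -0.456. The 5 Hox genes not tested, Hoxb1, Hoxb13, Hoxc11, Hoxc12 and Hoxd1, had at most 9 counts in any RTF2-deficient library.

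**Figure D2:**
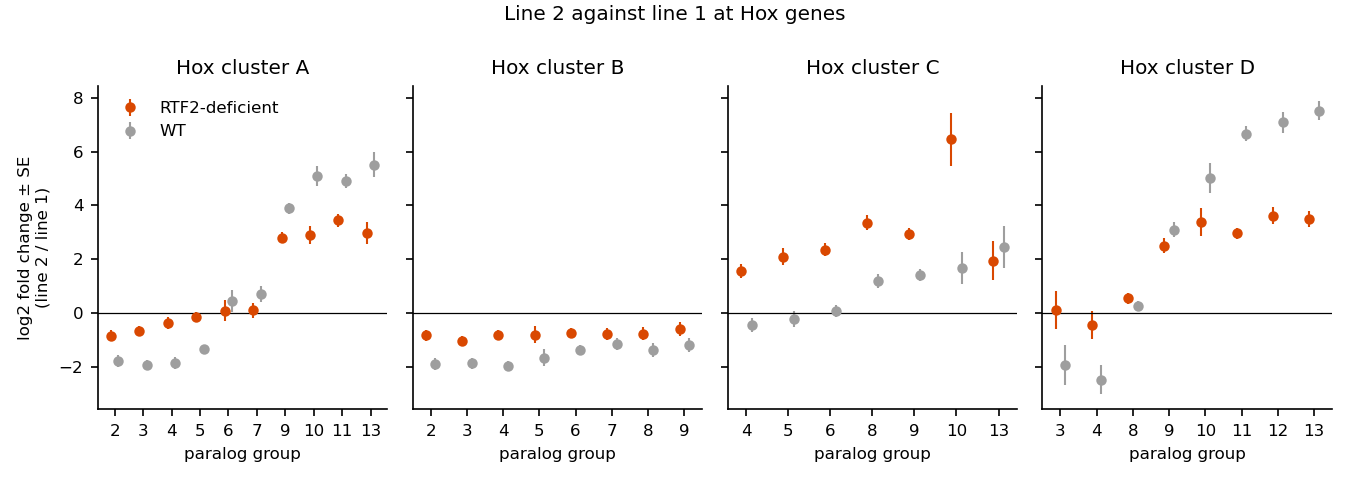
Log2 fold change of line 2 over line 1 with its SE for Hox genes, by cluster and paralog group, in RTF2-deficient (orange) and WT (grey) MEFs. In clusters A and D the genes from group 9 on lie above 0 in both genotypes, cluster B lies below 0 throughout, and cluster C is higher in the RTF2-deficient cells at groups 4 to 10.

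In cluster D the step lay between Hoxd8 and Hoxd9. Hoxd13, which patterns digits and genitals, was at 7.21, 4.98 and 4.12 CPM in line 1 and at 56.7, 52.3 and 73.3 CPM in line 2, a log2 fold change of 3.48 ± 0.29 (adjusted p = 0.0001732). Hoxd12 was at 0.454, 0.466 and 0.439 CPM in line 1 and at 5.41, 4.62 and 6.8 CPM in line 2 (3.62 ± 0.32, adjusted p = 0.0001764). The 5 genes from Hoxd9 to Hoxd13 were all higher, with log2 fold changes from 2.50 to 3.62, whereas Hoxd8, Hoxd4 and Hoxd3 were not called (0.54, -0.46 and 0.10). Evx2, the homeobox gene next to Hoxd13, was higher too, at 3.45 ± 0.41 (adjusted p = 0.00146).

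In cluster A the step lay between Hoxa7 and Hoxa9. Hoxa11, a gene of the middle limb segment, was at 1.53, 1.01 and 0.878 CPM in line 1 and at 11.9, 11.5 and 13.9 CPM in line 2 (3.45 ± 0.24, adjusted p = 7.08e-05). Hoxa11os, the antisense transcript that overlaps it, was at 0.74, 0.932 and 0.317 CPM against 6.09, 6.85 and 8.07 CPM (3.40 ± 0.33, adjusted p = 0.0003392). Whether the counting used strand is not given in the sources used here, so the reads of this pair cannot be told apart. The 4 genes tested from Hoxa9 to Hoxa13 had log2 fold changes from 2.80 to 3.45 and were all called, as was Hottip (3.37 ± 0.45), the lncRNA at that end of the cluster. Hoxa2 to Hoxa7 were not called, with values from -0.85 to 0.09. In clusters A and D alike, the called genes were those of paralog group 9 and above.

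Clusters B and C did not follow this pattern. Cluster C, of which 7 genes were tested, had 6 genes called higher, including the more anterior Hoxc4, Hoxc5, Hoxc6 and Hoxc8, while Hoxc13 did not pass the test (1.94, adjusted p = 0.242). Hoxc8, a gene of the thoracic trunk, was at 1.39, 0.981 and 0.878 CPM in line 1 and at 10.4, 11.4 and 11.5 CPM in line 2 (3.35 ± 0.29, adjusted p = 0.0001735). Hoxc10, expressed in the lumbar trunk and the hindlimb, had 2 counts in all of line 1 and 207 in line 2, a ratio of 102.6 (95% exact counting interval 28.04 to 852.6). The call of Hoxc4 was lost without line 1 replicate 1, line 1 replicate 2, line 2 replicate 1 or line 2 replicate 2 (adjusted p up to 0.0735). In cluster B, by contrast, all 8 genes tested lay lower in line 2, from -0.62 to -1.04 on the log2 scale. The libraries of the lines did not overlap at these 8 genes, beside 19.7% of all genes in either direction. Hoxb3 alone was called (-1.04 ± 0.19, adjusted p = 0.01832), and its call was kept only without line 1 replicate 3 (adjusted p up to 0.0825).

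To see whether the lines differed in the same way where RTF2 was present, the log2 fold changes of line 2 over line 1 were set beside those of the WT cells, which share no library with them. WT lines differed in 922 genes (6.70%), 530 of them higher (3.85%) and 392 lower (2.85%) in line 2. Of the 178 genes called in RTF2-deficient cells, 141 were called in the same direction in WT cells, 105 higher and 36 lower, which is 79.21% of the RTF2-deficient calls and 15.29% of the WT calls. A same sign was seen for 171 of the 178, or 96.07%, beside 72.14% of all genes. There were 2 genes called in opposite directions, among them Tfap2b, lower in RTF2-deficient (-2.05) and higher in WT cells (3.32). Over the 13756 genes, which share libraries and are no replicates, Pearson's correlation of the line effects was 0.7097 and Spearman's was 0.5835, given as a description. The genes higher in line 2 of both genotypes included Pitx1 (6.09 in WT), Hand2 (4.74) and Dkk2 (3.19), and those lower in both included Zic1 (-1.89), Mgll (-2.45) and Igfbp2 (-2.68).

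**Figure D3:**
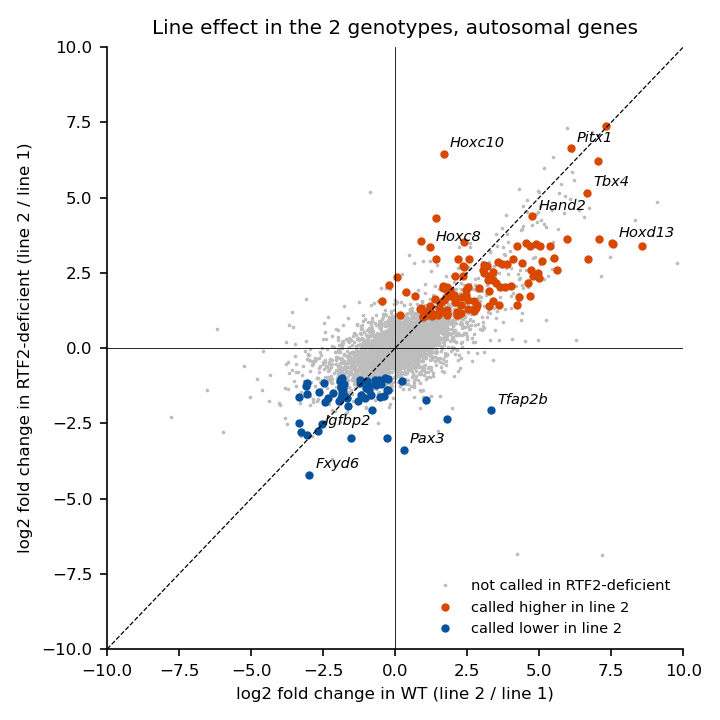
Log2 fold change of line 2 over line 1 in WT (x axis) and RTF2-deficient (y axis) MEFs for 13756 autosomal genes, with the genes called higher (orange) and lower (blue) in the RTF2-deficient comparison. Most coloured points lie at the upper right and the lower left, while Pax3 and Tfap2b lie below 0 in RTF2-deficient and above 0 in WT cells, and the dashed line marks equal values.

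The difference between the genotypes was itself tested as an interaction, and 142 genes were called (1.03%), 83 with a higher (0.603%) and 59 with a lower (0.429%) value in RTF2-deficient cells. Of the 178 genes, 30 were among them (16.85%). The WT and RTF2-deficient cells of a line came from different embryos, so genotype and embryo cannot be told apart in this difference. The count of 142 fell to 55 without RTF2-deficient line 2 replicate 2, to 64 without WT line 2 replicate 3 and to 66 without line 1 replicate 2 of either genotype. It was 81 and 86 without replicate 1 of RTF2-deficient line 2 and line 1, 13 in glmTreat, 252 in DESeq2 and 232 with the interferon score as a term. In cluster D, Hoxd11, Hoxd12 and Hoxd13 differed more between the WT lines (6.68, 7.09 and 7.53) than between the RTF2-deficient lines (2.96, 3.62 and 3.48). The lines of the 2 genotypes differed at both ends here. In WT line 1 Hoxd13 was at 0.334, 0.669 and 1.18 CPM, below RTF2-deficient line 1, and in WT line 2 at 138, 138 and 130 CPM, above RTF2-deficient line 2. The difference was -4.05 ± 0.43 for Hoxd13 (adjusted p = 0.001935), -3.46 ± 0.54 for Hoxd12 and -3.72 ± 0.35 for Hoxd11. Hoxd9 and Hoxd10 were not called in the interaction (-0.60 and -1.64, adjusted p = 0.8442 and 0.5947).

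Cluster C went the other way. Hoxc6 was at 2.77, 2.65 and 1.93 CPM in RTF2-deficient line 1 and at 12.3, 12 and 13.1 CPM in line 2, whereas in WT it was at 10.6, 7.43 and 5.74 CPM in line 1 and at 6.6, 10.1 and 8.29 CPM in line 2. RTF2-deficient line 1 was thus the one low group among the 4, and the interaction was 2.27 (adjusted p = 0.01198). Hoxc4, Hoxc5, Hoxc8 and Hoxc9 were also called higher in the interaction, as were Hoxa3, Hoxa4 and Hoxa5, which were lower in WT line 2 (-1.95, -1.87 and -1.36) and not called between the RTF2-deficient lines. For Pax3 the one high group was RTF2-deficient line 1, since WT libraries lay between 0.287 and 0.614 CPM and the WT lines did not differ (0.30, adjusted p = 0.652), with an interaction of -3.67 ± 0.51 (adjusted p = 0.00894).

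Of the genes chosen for the largest positive interaction, Krt7, Gper1 and Pou3f3 did not pass the test between the RTF2-deficient lines (0.76, -0.48 and -0.54), while in WT they were lower in line 2, at -3.70, -3.72 and -3.44 on the log2 scale. Over 15 alternatives the value between the RTF2-deficient lines ran from 0.328 to 1.807 for Krt7, which was called in 1 of them. It ran from -0.903 to -0.218 for Gper1 and from -0.725 to -0.162 for Pou3f3. Pou3f3, a transcription factor of the nervous system and the kidney, was at 20, 31.3 and 29.5 CPM in RTF2-deficient line 1 and at 18.9, 20 and 16.6 CPM in line 2, and at 1.19, 3.68 and 3.45 CPM in WT line 2. WT line 2 was thus the one low group among the 4. Whether the sex of the WT line 2 cells bears on these 3 genes was not tested.

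Outside the positional genes, the genes with the highest log2 fold changes included 2 transporters and a secreted enzyme. Slc7a8, a transporter of neutral amino acids, was at 0.884, 1.3 and 0.853 CPM in line 1 and at 15.3, 11.9 and 10.1 CPM in line 2 (3.62 ± 0.26, adjusted p = 7.306e-05). Slc5a7, the high-affinity choline transporter of cholinergic neurons, was at 0.669, 0.466 and 0.488 CPM against 7.15, 4.26 and 7.5 CPM (3.54 ± 0.34, adjusted p = 0.0003333). Both transporters were well separated between lines and kept their call with every library left out. Enpp2, which encodes the lysophosphatidic acid-producing enzyme autotaxin, was at 2.08, 1.59 and 1.61 CPM against 14.1, 17.2 and 28.7 CPM (3.50 ± 0.71, adjusted p = 0.0293), but its call was lost without any 1 of the 6 libraries (adjusted p up to 0.134).

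Of 39 tested genes of the Wnt pathway list, 2 were higher and 1 was lower, beside 0.858% and 0.436% of all genes. The list's median was -0.218 (-0.483 without line 2 replicate 3, with 1 higher and none lower). With the interferon score as a term 1 was higher and 6 were lower. Wnt7b, a ligand outside the list and named after its values were seen, was called higher at 0.289, 0.385 and 0.181 CPM in line 2 against at most 0.0488 CPM in line 1, and lost its call without any 1 library (adjusted p up to 0.153). Dkk2, a secreted Wnt modulator, was at 4.7, 7.31 and 5.02 CPM in line 1 and at 47.1, 35.1 and 30 CPM in line 2 (2.72 ± 0.29, adjusted p = 0.0007028). Wnt10b, a ligand, was higher by 1.14 ± 0.17 (adjusted p = 0.005182) and fell under the fold threshold without line 2 replicate 3. Rspo1, which enhances Wnt signals, was lower (-1.67 ± 0.33) and lost its call without line 1 replicate 2, line 1 replicate 3, line 2 replicate 2 or line 2 replicate 3 (adjusted p up to 0.118). A single member of the 42 listed for the BMP and TGF-beta pathways was called by edgeR, Bmp4, at 55.6, 40.4 and 31.9 CPM in line 1 and at 13.6, 11.6 and 15.9 CPM in line 2 (-1.64 ± 0.35, adjusted p = 0.04009). The call of Bmp4 was lost without any library except line 1 replicate 3 (adjusted p up to 0.173). In that list limma-voom and edgeR with a replicate block called none, DESeq2 called 2 genes lower, and edgeR with the interferon score as a term called 4 lower. Among 40 listed genes of FGF, IGF, PDGF, EGF and hedgehog signalling, edgeR called Fgf5, at 0.0716, 0.0981 and 0.268 CPM against 0.938, 0.821 and 1.65 CPM (2.94 ± 0.44, adjusted p = 0.005932). Fitted on the 6 libraries alone, Fgf5 was not called (adjusted p = 0.055) and neither was any other gene of that list. DESeq2 called 2 of them higher, and edgeR with the interferon score as a term 2 higher and 5 lower. Dhh, a hedgehog ligand outside the list and named after its values were seen, was at 1.24, 1.15 and 0.707 CPM in line 1 and at 3.3, 2.95 and 2.96 CPM in line 2 (1.57 ± 0.25, adjusted p = 0.00846), and kept its call with each library left out.

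Retinoic acid, a posterior signal of the embryo, is bound in the cytoplasm by the products of Crabp1 and Crabp2. Of 19 genes of this list these 2 were called, both higher in line 2, beside 0.858% of all genes. Crabp1 was at 6.93, 9.37 and 11 CPM in line 1 and at 31, 28.9 and 31.4 CPM in line 2 (1.74 ± 0.15, adjusted p = 0.0001764), and Crabp2 at 9.98, 10.9 and 9.87 CPM against 23.1, 19.9 and 26.8 CPM (1.18 ± 0.19, adjusted p = 0.008545). The list's median was -0.018 (-0.173 without line 2 replicate 3), with 8 members positive and 11 negative, and DESeq2 and limma-voom each called 3 members higher. With the interferon score as a term, edgeR called 3 higher and 1 lower, with a median of -0.294.

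Some matrix and cartilage genes were lower in line 2. Of 25 listed collagens 3 were lower and none was higher, with a median log2 fold change of -0.533. Of 56 matrix glycoproteins and proteoglycans 2 were lower and none was higher, with a median of -0.125. Over all genes 0.436% were called lower and 0.858% higher. Line 1 replicate 1 weighed on both lists, since without it the collagens had a median of -0.264 and 2 lower calls, and the matrix glycoproteins a median of 0.039 and no call (8 at an unadjusted p under 0.05). The matrix glycoproteins also had no call without line 2 replicate 1 or without line 2 replicate 2, and a median of -0.299 without line 2 replicate 3. With the interferon score as a term, 10 collagens and 9 matrix glycoproteins were lower and 2 matrix glycoproteins higher, and DESeq2 called 5 collagens lower. Col6a4, a collagen gene outside the list and named after its values were seen, was called higher (2.74, at most 0.995 CPM) and lost its call without any 1 library (adjusted p up to 0.151). Col2a1, the main collagen of cartilage, was at 2443, 1774 and 1971 CPM in line 1 and at 879, 1044 and 975 CPM in line 2 (-1.09 ± 0.16, adjusted p = 0.004986). Without line 1 replicate 1 it fell under the fold threshold. Col11a1, its partner in cartilage fibrils, was at 935, 789 and 658 CPM against 317, 350 and 362 CPM (-1.21 ± 0.16, adjusted p = 0.002734). Col7a1, the collagen of anchoring fibrils, was at 160, 195 and 177 CPM against 67, 77.9 and 50.2 CPM (-1.45 ± 0.18, adjusted p = 0.002036). These 3 genes separated the lines in every library. Acan, the cartilage proteoglycan, was at 169, 83.4 and 78.2 CPM against 20, 30.2 and 29.8 CPM (-2.05 ± 0.43, adjusted p = 0.03794), and its call was lost without any library except line 1 replicate 3 (adjusted p up to 0.143). Igfbp2, which binds insulin-like growth factors, was at 2307, 785 and 731 CPM against 130, 156 and 280 CPM (-2.76 ± 0.53, adjusted p = 0.02388). Line 1 replicate 1 was high for Acan and Igfbp2 alike, and the Igfbp2 call was lost without it or without line 2 replicate 1 or 2 (adjusted p up to 0.12).

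The other genes with the lowest log2 fold changes had varied roles. Fxyd6, a regulator of the sodium pump, was at 7.04, 3.16 and 3.19 CPM in line 1 and at 0.0962, 0.231 and 0.384 CPM in line 2 (-4.21 ± 0.67, adjusted p = 0.008286), and lost its call without line 2 replicate 2 (0.0542). Susd5, a membrane protein, had -2.98 ± 0.47 (adjusted p = 0.007978) and likewise lost its call without line 2 replicate 2 (0.0534). Mgll, the enzyme that breaks down monoacylglycerols, was at 45.3, 32.4 and 42.9 CPM against 8.71, 14.1 and 11.9 CPM (-1.79 ± 0.28, adjusted p = 0.008286). Vit, a matrix protein, was at 26.8, 26.4 and 23.2 CPM against 8.49, 7.78 and 8.27 CPM (-1.64 ± 0.18), and Cmklr1, the chemerin receptor, at 27.1, 31.2 and 27.3 CPM against 10.3, 11.1 and 9.15 CPM (-1.49 ± 0.18). These last genes varied little within a line. Wdfy1, an endosomal adaptor, was at 75.9, 72.2 and 74.4 CPM in line 1 and at 22.7, 23 and 29.2 CPM in line 2 (-1.57 ± 0.14, adjusted p = 0.0001764), with WT lines at 64.2 to 70.2 and 23.5 to 34.7 CPM. The level of Wdfy1 thus followed the line in both genotypes, with an interaction of -0.38 (adjusted p = 0.67).

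Of 22 smooth muscle and contractile genes 2 were higher, beside 0.858% of all genes, with a median of -0.205, and with the interferon score as a term 2 were higher and 2 lower. Mylk, the myosin light chain kinase, was at 2.58, 3.38 and 2.34 CPM in line 1 and at 9.79, 8.44 and 14.6 CPM in line 2 (1.99 ± 0.23, adjusted p = 0.001357). Des, the muscle intermediate filament, had 1.85 ± 0.36 and lost its call without line 1 replicate 1 or 2 or line 2 replicate 2 or 3 (adjusted p up to 0.108). Of 27 epithelial junction and keratin genes 2 were higher and 2 lower, the median was 0.492, 21 were positive and 13 had an unadjusted p under 0.05. The 4 calls stand beside 1.29% of all genes. DESeq2 called 6 of them higher and 2 lower, and edgeR with the interferon score as a term 7 higher and 2 lower. The desmosomal genes Dsc2 and Pkp1 moved in opposite directions, Dsc2 at 2.05 ± 0.34 (adjusted p = 0.01121, and 0.0534 without line 1 replicate 1) and Pkp1 at -1.77 ± 0.25 (adjusted p = 0.004557). Krt18, a keratin of simple epithelia, had 1.73 ± 0.31 (lost without line 2 replicate 1 or 2, adjusted p up to 0.0652), and Sfn, which encodes the protein 14-3-3 sigma, had -1.04 ± 0.20 (kept only without line 1 replicate 1, adjusted p up to 0.0915 otherwise). The summed level of 7 epithelial markers was 3.32 to 4.49 CPM in line 1 and 9.83 to 13.3 CPM in line 2, most of it Krt18, with Krt5 and Krt14 at or near 0. Its part in the result was not tested.

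Among the listed chemokine, cytokine and complement genes 4 were called, beside 1.29% of all genes. Il1rl1, the receptor of interleukin-33, was at 53, 62.6 and 80.2 CPM in line 1 and at 180, 200 and 153 CPM in line 2 (1.44 ± 0.20, adjusted p = 0.004055). Ccl2, a chemokine for monocytes, was at 3.08, 3.92 and 2.93 CPM against 10.8, 12.7 and 28.2 CPM (2.38 ± 0.52, adjusted p = 0.04347). The call of Ccl2 was lost without any 1 of the 6 libraries (up to 0.167), and line 2 replicate 3, the interferon-high library, was its highest. These 2 were the calls among 26 chemokines and cytokines, whose median was 0.629, and 0.145 without line 2 replicate 3. DESeq2 called 5 of the 26 higher. Of 13 complement genes, with a median of 0.11 (-0.925 without line 2 replicate 3), Cd55 and Cd59a, which protect cells from complement, were higher (2.04 ± 0.30 and 1.33 ± 0.29), Cd59a losing its call without any library except line 1 replicate 1 (up to 0.143) and in a fit of the 6 libraries alone. In that list DESeq2, RLE normalization and leaving out line 1 replicate 1 each gave 2 genes higher and 1 lower, whereas the interferon score as a term gave 2 higher and 6 lower, with a median of -1.118. C4bp, a complement gene outside the list and named after its values were seen, was called lower (-1.758). It lost its call without any 1 library (adjusted p up to 0.151).

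Interferon-stimulated genes gave the highest median of any list and no call by edgeR with the 4 groups alone in the layout. All 44 were tested, and the median log2 fold change was 3.652. Of them 31 had an unadjusted p under 0.05 (13.3% of all genes) and 19 did not overlap between lines (19.7% of all genes). DESeq2 called 21 of the 44 and limma-voom none. With the interferon score, which is made from these same genes, as a term, edgeR called 2 higher and 2 lower, with a median of -0.246. Isg15, a ubiquitin-like antiviral protein, was at 16.7, 5.59 and 6.44 CPM in line 1 and at 13.5, 34.3 and 348 CPM in line 2 (3.78 ± 1.30, adjusted p = 0.2136). Ifit1, which binds viral RNA, was at 14, 5.18 and 6.73 CPM against 18.4, 35.6 and 388 CPM (4.09 ± 1.29, adjusted p = 0.1682). In both, line 2 replicate 3 was about an order of magnitude above the other line 2 libraries. Without that library the median of the list was 1.174, 2 genes had an unadjusted p under 0.05 and none was called. The 16 genes of MHC class I and peptide loading had a median of 1.136 and no call by edgeR, DESeq2 or limma-voom, with 4 at an unadjusted p under 0.05 in edgeR, and a median of 0.28 without that library.

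**Figure D4:**
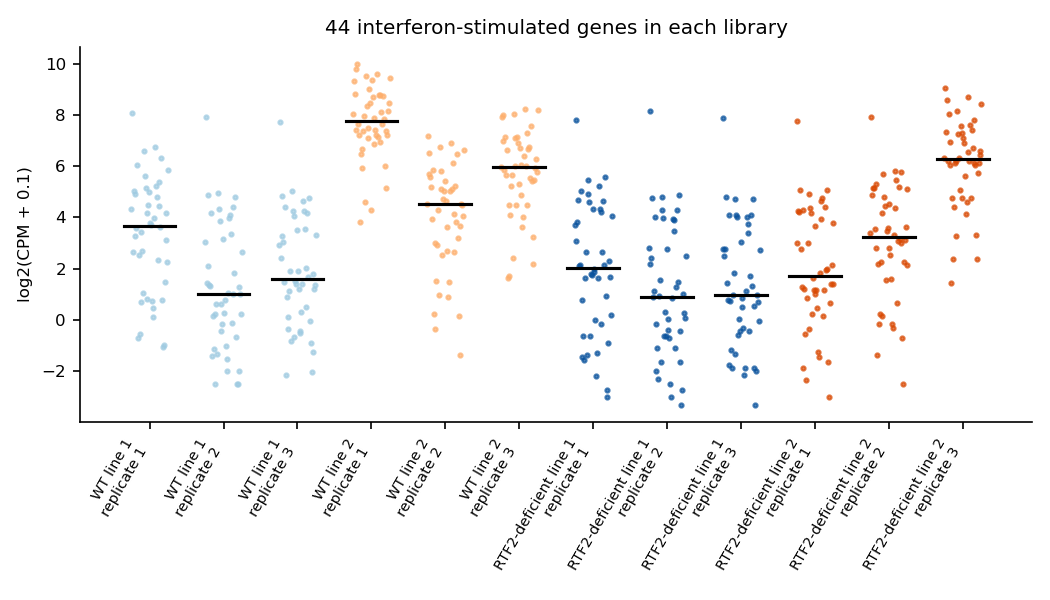
Log2 of CPM plus 0.1 for 44 interferon-stimulated genes (points) and their median (bar) in each of the 12 libraries. Among the RTF2-deficient libraries line 2 replicate 3 has the highest median, and the medians of all 3 libraries of WT line 2 lie above those of RTF2-deficient line 1.

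The lists of growth and housekeeping genes held no call by edgeR, DESeq2 or limma-voom with the 4 groups alone in the layout. At an unadjusted p under 0.05, which 13.3% of all genes had, edgeR found 6 of 52 S phase and replication genes, 0 of 36 G2/M genes, 2 of 31 p53 targets, 5 of 18 G1 cyclins and CDK inhibitors, 4 of 27 genes of the integrated stress response and 0 of 23 genes of cholesterol synthesis and uptake. The same count was 2 of 24 NRF2 targets, 5 of 20 AP-1 and immediate early genes, 0 of 64 ribosomal protein genes and 0 of 33 proteasome subunits. These counts moved with single libraries, that of the integrated stress response to 15 without line 2 replicate 3 and to 2 without line 1 replicate 1 or line 2 replicate 1, and that of the S phase genes to 1 without line 1 replicate 1. The medians of these lists lay between -0.237 (integrated stress response) and 0.116 (p53 targets), which were -0.394 and 0.056 without line 2 replicate 3. The median of the cholesterol genes moved from -0.024 to -0.311 without line 2 replicate 1 and to 0.183 without line 1 replicate 2. With the interferon score as a term, edgeR called 6 genes of the integrated stress response, 1 p53 target and 1 NRF2 target lower and 2 G1 genes higher. Among genes of cell contact and tissue structure, edgeR and limma-voom called none of the listed 41 semaphorins and other guidance genes, 33 integrins and cadherins, 28 matrix proteases and inhibitors, 12 skeletal muscle genes and 2 proliferins. At an unadjusted p under 0.05 edgeR found 10, 9, 10, 1 and 0 of them, and DESeq2 called 1 guidance gene higher and 1 matrix protease gene lower. With the interferon score as a term, edgeR called 1 guidance gene higher and 1 lower, 1 integrin or cadherin higher and 7 lower, 5 matrix protease genes lower, and 1 skeletal muscle gene higher and 2 lower. With a replicate block it called 1 guidance gene higher, and without line 2 replicate 3 it called 1 integrin or cadherin lower. Outside these lists, and named after their values were seen, Psma8, a proteasome subunit gene, was called higher (2.32, at most 0.429 CPM, kept only without line 2 replicate 1), as was Sema6b, a semaphorin (1.14 ± 0.25, kept only without line 1 replicate 1), while Myom1, a gene of the sarcomere, was called lower (-1.06 ± 0.17, under the fold threshold without line 1 replicate 1). Of 24 adipogenic, osteogenic and chondrogenic genes 1 was higher and 2 were lower, beside 0.858% and 0.436% of all genes. The higher gene was the adipocyte lipid carrier Fabp4 (1.42 ± 0.28, kept only without line 2 replicate 2, adjusted p up to 0.105 otherwise), and the lower ones were Acan and Col2a1. In that list limma-voom called 2 genes lower and none higher, DESeq2 1 higher and 3 lower, and edgeR with the interferon score as a term 1 higher and 7 lower.

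Of 42 imprinted genes 1 was higher and 2 were lower, beside 0.858% and 0.436% of all genes. Mest, which is expressed from the paternal allele, was at 86.1, 82.8 and 58.2 CPM in line 1 and at 30.3, 25.1 and 25.7 CPM in line 2 (-1.48 ± 0.25, adjusted p = 0.01078, and 0.0664 without line 2 replicate 2). Cobl, an actin nucleator, had -1.38 ± 0.18 (adjusted p = 0.002811), and Gatm, the first enzyme of creatine synthesis, had 1.11 ± 0.10 (adjusted p = 0.0002172). The median of the list was -0.008, with 21 members positive and 21 negative. An unadjusted p under 0.05 was seen for 8 of the 42, beside 13.3% of all genes. Single enzymes completed the calls in the lists. Car12, a carbonic anhydrase, was the one of 31 glycolysis and hypoxia genes (1.11 ± 0.23, lost without line 1 replicate 2 or 3 or line 2 replicate 2 or 3, adjusted p up to 0.135), and Mgst1, a microsomal glutathione transferase, the one of 15 glutathione, aldehyde and P450 enzymes (1.17 ± 0.20, adjusted p = 0.0141, and 0.0548 without line 1 replicate 2). Nnt, the mitochondrial transhydrogenase whose gene is deleted in some C57BL/6 substrains, was present in both lines, at 48.8, 55.8 and 48.9 CPM against 81.5, 71.6 and 67.8 CPM (0.53 ± 0.11, adjusted p = 0.03608, under the fold threshold).

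**Figure D5:**
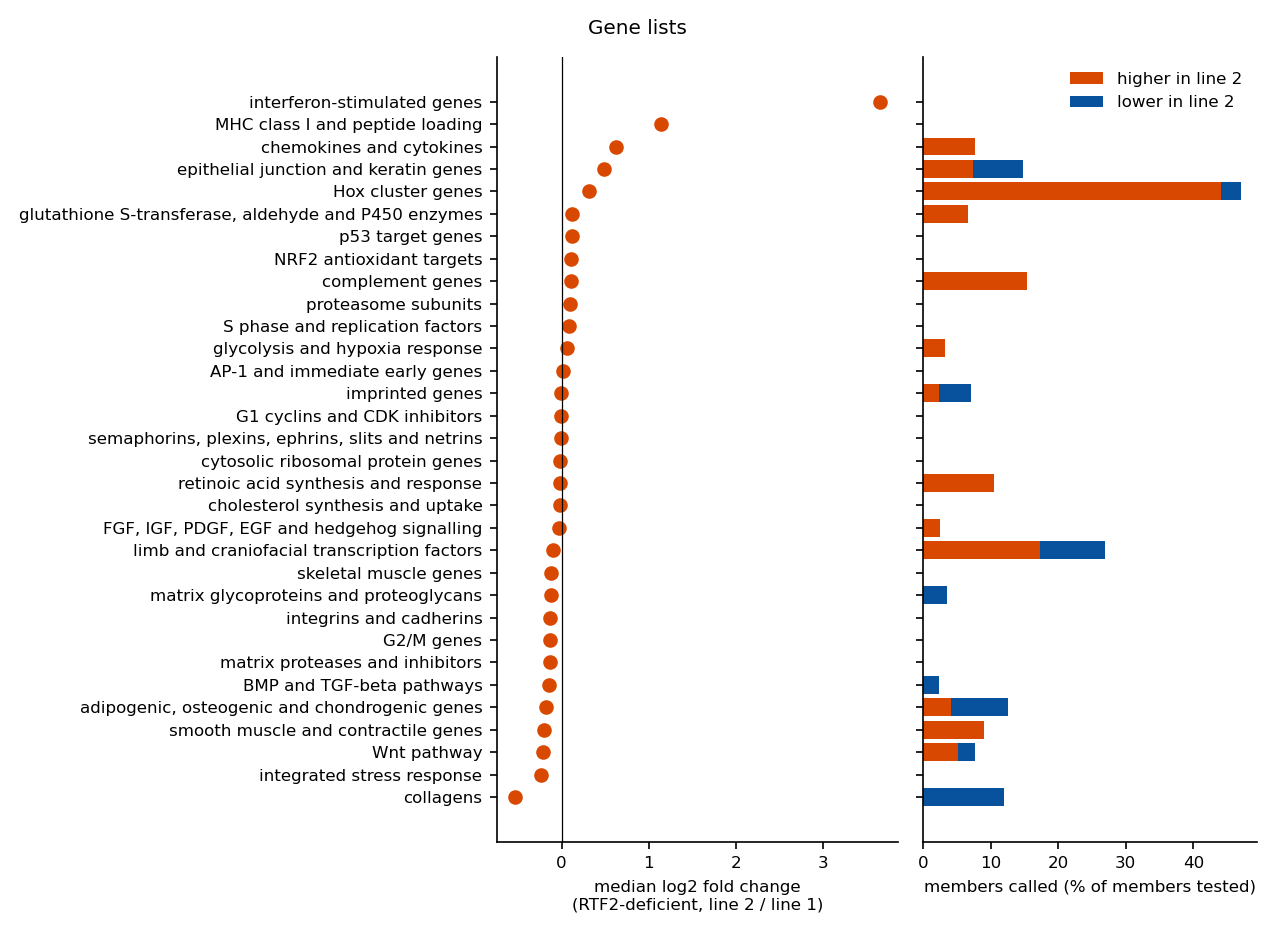
Median log2 fold change of line 2 over line 1 in RTF2-deficient MEFs (left, points) and share of tested members called higher (orange) and lower (blue) in line 2 (right, bars in percent) for the gene lists with at least 5 members tested. The Hox genes and the limb and craniofacial factors have the largest shares called, while the interferon-stimulated genes have the highest median (3.652) and no call by edgeR with the 4 groups alone in the layout.

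Fibroblast markers were present in both lines. The 12 fibroblast markers summed to between 25300 and 32100 CPM in line 1 and between 21700 and 24700 CPM in line 2, although Dcn and Lum were low in both (at most 2.1 and 0.926 CPM). The summed blood and macrophage markers were 3.02 to 3.53 CPM in line 1 and 5.04 to 6.34 CPM in line 2, with Ptprc at or under 0.122 CPM and Hbb-bt at 0. The endothelial sum was 17.7 to 21.6 CPM in line 1 and 14.2 to 19 CPM in line 2, with Pecam1 at or under 0.113 CPM, and the neural sum was 39.5 to 50.4 CPM against 24.5 to 34.4 CPM, carried by Tubb3. The skeletal muscle sum was 17 to 24 CPM against 33.3 to 42.9 CPM, with Myod1, Myog and Myf5 at or under 0.334 CPM. Whether these small differences bear on the called genes was not tested.

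By chromosome, the calls were spread over all 19 autosomes, from 0.424% of genes on chromosome 10 to 2.5% on chromosome 15, which holds the Hox C cluster. The median log2 fold change of genes over 10 CPM lay between -0.037 and 0.022 on every autosome except chromosome 10, where it was -0.082 and 29% of genes were positive. There line 1 replicate 1 deviated by 0.109 from the mean of the 6 RTF2-deficient libraries over 462 genes, against 0.013 and -0.01 in the other line 1 libraries, and the WT lines had a median of -0.018.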

How the data were processed

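RNA-seq of 12 libraries from immortalized MEFs was analysed, 3 for each line and genotype, grouped by their titles. The authors deposited whole-number counts per gene, identified by Entrez number. HTSeq and the build mm10 are named in the processing notes of the submitters, whereas the study's methods describe Salmon transcript estimates summed to genes, and which of these made the deposited counts is not settled here. Whether strand was used is not given in the sources used here.

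Counts were analysed with edgeR 4.0.16 in R 4.3.3 (filterByExpr, TMM, quasi-likelihood test), with the 12 libraries in 1 layout of 4 groups, so that all groups shared the estimate of spread. Contrasts were line 2 against line 1 in RTF2-deficient cells, the same in WT cells, and their difference. Genes were called at a Benjamini-Hochberg adjusted p under 0.05 and an absolute log2 fold change over 1. Genes on X and Y were in the fit and left out of the counts. Of 24100 identifiers, 24045 matched RefSeq. Library totals ran from 39360167 to 44695002 counts, at which a count of 0 allows up to 0.0762 CPM (3 counts). Intervals and this limit cover counting error only. No 2 libraries were near-duplicates.

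The members and the gene lists were chosen with earlier results of these data known. Named genes were Rtf2, Nnt, the 12 highest and the 12 lowest called genes with a mean of at least 5 CPM in the higher group and no overlap, up to 4 called members of each list with a mean of at least 1 CPM there, and the 4 highest and 4 lowest in the difference at 5 CPM or more, and results for some genes are not reported here. On simulated counts for RTF2-deficient line 2 against line 1 (14127 genes), the test recovered 94 of 100 genes changed by 1.5 on the log2 scale and 99 of 100 changed by 3, with 5 false calls. Simulated counts were drawn separately for each library, and only genes with a mean of at least 1 CPM were changed. The simulation held no shift shared by many genes, such as that of the interferon-high library. Of the 178 calls, 43 had a mean under 1 CPM in the RTF2-deficient libraries. The recovery and the false calls therefore do not measure the accuracy on the real counts. Alternatives were other normalizations and filters, DESeq2 1.42.0, limma-voom (limma 3.58.1), glmTreat, a replicate block, the interferon score as a term, only the libraries compared, and leaving out each library.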

Additional observations from a re-analysis of the deposited data

Results flagged for a closer look

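The effect of line differed between genotypes at 142 genes by the interaction test of edgeR (adjusted over all genes tested), 55 to 131 with a library left out, and 15 of the genes chosen by the rule for named genes were among them, 7 with a positive and 8 with a negative value of RTF2-deficient minus WT on the log2 scale. The WT and RTF2-deficient cells of a line were from different embryos, so these values do not tell genotype from embryo. WT line 2 differed from the other 3 groups in sex-linked genes and had interferon scores of 4.507 to 7.758, and the part of either in these values was not tested.

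Of 13 Hox genes tested in paralog groups 9 to 13, 4 were called with a negative value and 1 with a positive one. The negative values were -4.05 for Hoxd13, -3.46 for Hoxd12, -3.72 for Hoxd11 and -2.19 for Hoxa10, and the positive one was 1.53 for Hoxc9 (adjusted p = 0.03941). Hoxc8, also of cluster C, had 2.16. Tbx4 of the hindlimb had -1.50 (adjusted p = 0.04128), since its line effect was 5.16 in RTF2-deficient and 6.67 in WT cells. The value was -3.67 for Pax3.

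Among the other genes the value was -2.35 for the transporter gene Slc7a8 and -2.15 for the cytokine receptor gene Il1rl1. It was 1.21 for Col7a1, 1.71 for Vit and 1.07 for Crabp1. Krt7 (4.46), Gper1 (3.24) and Pou3f3 (2.89) were not called between the RTF2-deficient lines, although Krt7 was in 1 of 15 alternatives.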

How the results depend on the processing

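Between the RTF2-deficient lines, DESeq2 called 323 genes (203 higher and 120 lower in line 2) and 252 in the difference between genotypes. The glmTreat test against the fold threshold called 29 (28 and 1), with 310 between WT lines and 13 in the difference. With the interferon score as a term, 569 were called (205 higher and 364 lower), which turned the balance from higher to lower, with 232 in the difference. With no fold threshold, 114 were lower and WT lines differed at 1907. Leaving out each library in turn gave 96 to 142 called genes (75 to 91 higher, 21 to 51 lower), 675 to 1048 between WT lines and 55 to 131 in the difference, the lowest count in the difference coming with RTF2-deficient line 2 replicate 2 left out. That difference held 64 genes when WT line 2 replicate 3 was left out and 66 when line 1 replicate 2 of either genotype was. Fitted on the 6 RTF2-deficient libraries alone, 124 were called, and of the genes named by the rule Fgf5, Igfbp2, Rspo1, Cd59a, Krt18, Car12 and Mgst1 lost their call (adjusted p from 0.055 to 0.126). Other normalizations and filters and limma-voom stayed within 1.5 times of each count. The 178 genes kept their sign in each alternative in which they were tested. The cause of these changes was not tested, except that leaving out a library leaves fewer samples.

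Replicates with the same number did not deviate together (correlations of -0.381, 0.0867 and -0.309), and those with different numbers had correlations from -0.375 to 0.514. Deviations were taken from the mean of 3 libraries, which ties these correlations to each other. Whether the numbers pair the samples is therefore not settled here. With a replicate block, 146 genes were called between the RTF2-deficient lines (104 higher, 42 lower), 889 between WT lines and 105 in the difference.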
